A study of Mus musculus with 816 samples.

Results

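The microglia of mice injected with lipopolysaccharide (LPS), the outer membrane component of Gram-negative bacteria, were compared with the microglia of mice injected with vehicle. The members are the 4 LPS mice and the 4 vehicle mice of the in vivo table, chosen by their treatment labels, or 8 of the 816 samples of the series. The remaining samples are microglial cultures and 24 mice of an aging experiment, which were 2 or 22 months of age. All 8 mice were female C57BL/6 animals 2 months of age. The LPS mice received 2 mg/kg LPS of strain 0111:B4 in phosphate-buffered saline by intraperitoneal injection, and the vehicle mice had the injection without LPS. The column names of all 8 mice, the LPS mice included, hold the word Vehicle, followed by -LPS or +LPS. The names of some mice of the aging experiment hold it too. Whether it stands for a further treatment that these mice shared was not resolved here. Microglia were isolated 4 h later from the perfused brain with magnetic beads against CD11b, an integrin chain that microglia share with other myeloid cells, so the isolation does not by itself separate microglia from blood monocytes or neutrophils. The study perfused the animals to clear blood from the brain and checked the purity of such isolates by flow cytometry, which is not analysed here. Each mouse gave 1 sample, and gene expression was measured by RNA sequencing of transcript 3′ ends.

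LPS is sensed by Toll-like receptor 4 (TLR4) together with the co-receptor CD14. The adaptor MyD88 leads from the receptor to the transcription factor NF-kB and to MAP kinases, which switch on immediate early genes, cytokines and chemokines, while the adaptor TRIF leads to interferon β and, through JAK and STAT proteins, to the interferon-stimulated genes. The response also switches on its own inhibitors, such as IkB proteins, A20, SOCS proteins and the MAP kinase phosphatases. Microglia are the resident macrophages of the brain, and after a peripheral injection they can meet LPS itself as well as cytokines from blood and brain endothelium.

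The deposited values are reads of a gene per 1000000 mapped reads (CPM), without division by transcript length, so they are compared between mice and not between genes. The depth, estimated from the step between low values, was 5.05 to 7.78 M mapped reads per mouse, and 8553 to 9051 genes per mouse were above 5 CPM. The microglial genes Tmem119, Selplg and Fcrls summed to 19789 to 26738 CPM in the vehicle mice and to 21844 to 29996 CPM in the LPS mice. In these bulk samples fewer cells of a type and less RNA per cell cannot be told apart. LPS mouse 2 stood apart in erythrocyte genes, whose summed level was 191, 17382, 503 and 339.7 CPM in LPS mice 1 to 4 and 130.3 to 696 CPM in the vehicle mice. LPS mouse 4 stood apart in the 13 mitochondrially encoded genes, which summed to 83669, 84247, 85751 and 138299 CPM in LPS mice 1 to 4 and to 104481 to 131203 CPM in the vehicle mice. All 8 libraries carry the same run and date in the table's header. Their library numbers run through the vehicle mice first and the LPS mice after them. A batch of handling that follows this order cannot be told apart from the treatment.

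Of 29858 genes listed, 9012 exceeded 5 CPM in at least 4 of the 8 mice and were tested with limma on log2(CPM + 1). At an adjusted p under 0.05, 2017 genes were called (22.4% of those tested), of which 792 were higher (8.79%) and 1225 lower (13.6%) in the LPS mice. At least a 2-fold change was reached by 477 of the higher genes (5.29%) and by 274 of the lower genes (3.04%). The rises were larger than the falls. The 15 largest rises lay between 4.4 and 5.32 on the log2 scale, while the 15 largest falls lay between -1.86 and -2.4. The genes that rose at least 2-fold took 1.96% to 2.13% of the mapped reads of a vehicle mouse. In an LPS mouse they took 9.36% to 10.4%, a direction fixed by choosing risen genes. CPM are shares of a total, and the median log2 fold change of all tested genes was -0.19. With median-of-ratios scaling this median was -0.04, and the split of calls turned from 792 higher and 1225 lower to 1022 higher and 585 lower. Without LPS mouse 2 the calls were 740 higher and 952 lower, and without LPS mouse 4 they were 747 higher and 893 lower.

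**Figure D1:**
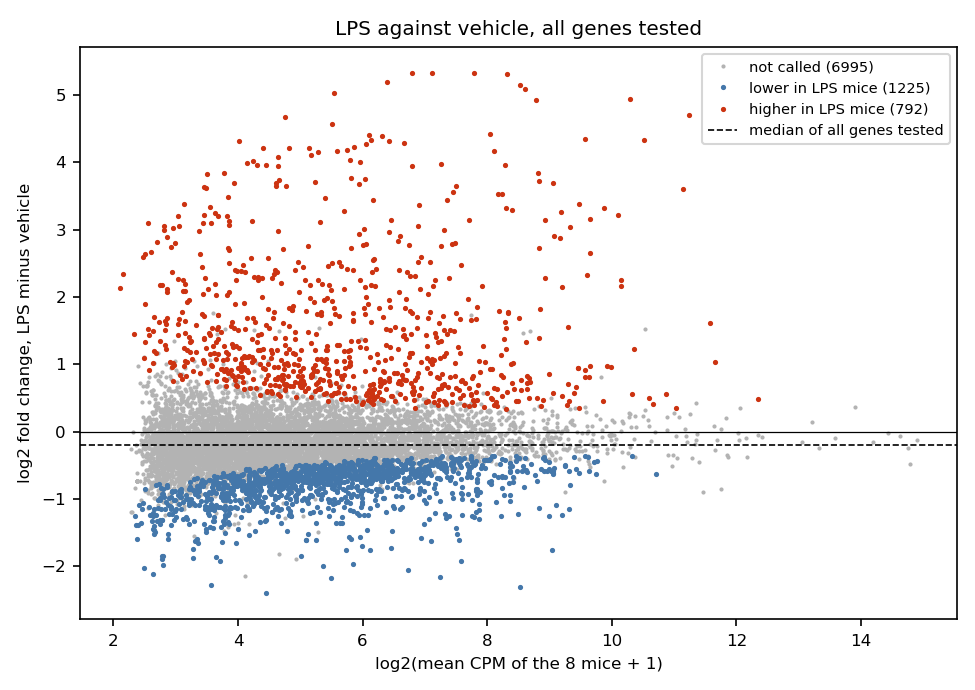
Log2 fold change between 4 LPS and 4 vehicle mice (y axis) against the log2 mean CPM of the 8 mice (x axis) for the 9012 genes tested, with called genes in red (792 higher) and blue (1225 lower). Rises reach past 5 on the log2 scale while falls end at -2.40, and the dashed median of all genes lies at -0.19.

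The 15 genes with the largest rises were all members of the gene lists described below. These lists were chosen with earlier results of these data known, so the membership does not test which pathways the genes come from. The share of all tested genes in the lists was not counted. Egr1, an immediate early transcription factor, was at 10.6, 7.36, 9.89 and 11 CPM in vehicle mice 1 to 4 and at 536, 461, 357 and 366 CPM in LPS mice 1 to 4. Every LPS mouse was far above every vehicle mouse, a rise of 5.32 (SE 0.17, adjusted p = 3.03e-11) on the log2 scale by limma with Benjamini-Hochberg adjustment, as are all adjusted p-values here. Dusp1, a phosphatase that switches off MAP kinases, was at 4.51, 4.91, 9.5 and 4.93 CPM without and at 258, 286, 238 and 291 CPM with LPS. Dusp2, its relative of immune cells, was at 14.3, 13.9, 15.8 and 15.1 CPM without and at 628, 605, 689 and 570.0 CPM with LPS. The groups of both phosphatases were wide apart, with rises of 5.32 (SE 0.20, adjusted p = 1.02e-10) and 5.3 (SE 0.13, adjusted p = 2.76e-12), and vehicle mouse 3 was the highest of its group for Dusp1. Tnfsf9, the ligand of the costimulatory receptor 4-1BB, was at 4.51, 5.48, 2.97 and 5.07 CPM in the vehicle mice and at 201, 209, 244 and 208 CPM in the LPS mice. This was a rise of 5.32 (SE 0.18, adjusted p = 3.83e-11), and the LPS mice lay close together.

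The neutrophil-attracting chemokine gene Cxcl2 was at 2.94, 1.88, 4.35 and 5.51 CPM in the vehicle mice and at 160.0, 178, 159 and 152 CPM in the LPS mice, a rise of 5.19 (SE 0.23, adjusted p = 5.47e-10). Il1b, which encodes the pyrogenic cytokine interleukin 1β, was at 16.7, 15.4, 24.1 and 20.1 CPM in the vehicle mice and at 626, 894, 755 and 573 CPM in the LPS mice, a rise of 5.15 (SE 0.17, adjusted p = 3.83e-11). LPS mouse 2 was the highest of the LPS mice in each of these genes. Tnf was at 76.9, 64.8, 85.9 and 81.5 CPM in the vehicle mice and at 1907, 2544, 2975 and 2238 CPM in the LPS mice, a rise of 4.94 (SE 0.15, adjusted p = 1.72e-11). Here the highest mouse was LPS mouse 3 and the lowest of the LPS mice was mouse 1. The suppressor of JAK-STAT signalling Socs3 went from 202, 163, 178 and 167 CPM to 4973, 4729.7, 4782 and 4051 CPM, a rise of 4.7 (SE 0.12, adjusted p = 5.78e-12). The other genes among the 15 largest rises were Cxcl10 (5.08), Ptgs2 (5.02), Ier3 (4.92), Tnip3 (4.67), Cish (4.56), Pim1 (4.41) and Ptger4 (4.4), and all 15 kept their call under each of the 16 alternative settings tried.

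**Figure D2:**
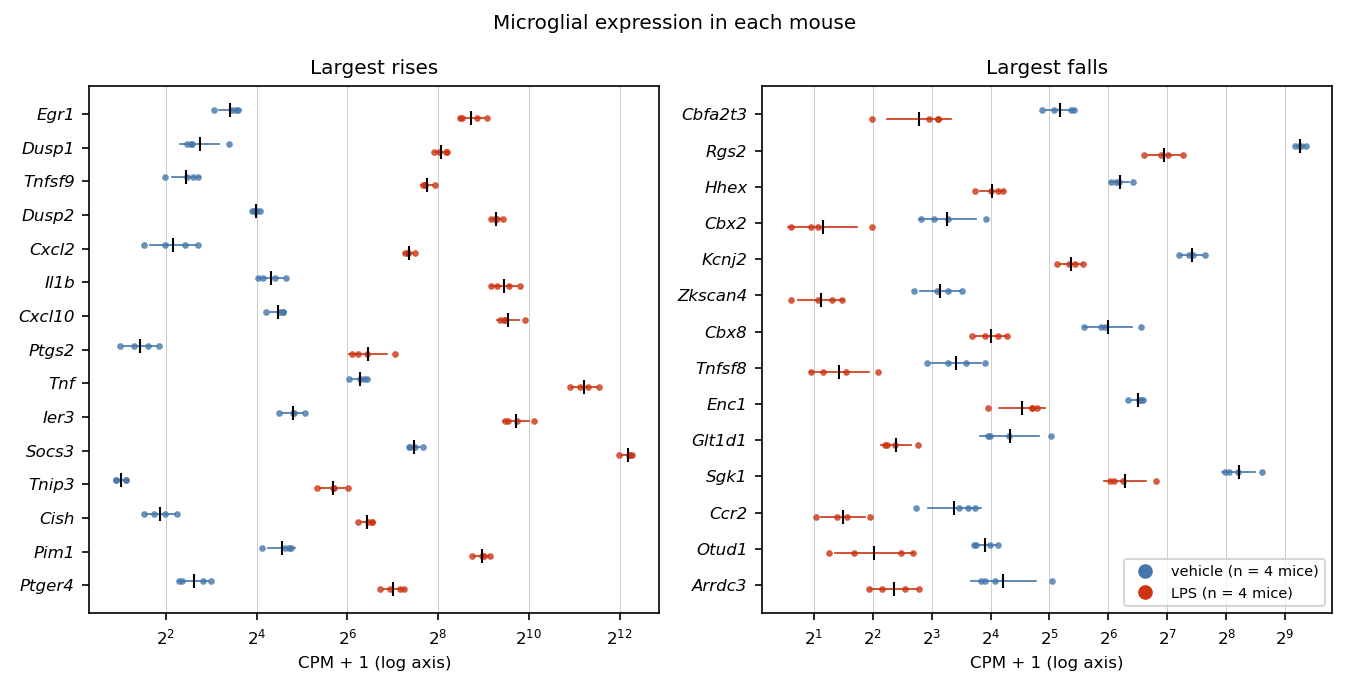
CPM + 1 of each mouse (x axis, log scale) for the 15 leading risen genes and 14 of the leading fallen genes (y axis), 4 vehicle mice in blue and 4 LPS mice in red, with the mean on the log scale as a black tick and 1 SD as a line. The groups do not overlap for any of the 29 genes, which the rule that chose them required, against 9.37% of all tested genes with every LPS mouse above and 16.1% with every LPS mouse below the vehicle mice.

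The promoters of the genes at the top of this ranking are shown for their sequence, since the genes rise together and NF-kB, interferon and AP-1 factors bind known motifs. Windows of RefSeq transcripts (GRCm38.p6) were available for Dusp1, Dusp2, Cxcl2 and Il1b, and that of Nfkbia, which encodes the NF-kB inhibitor IkBα, was added as a known NF-kB target. The lines give the 250 bases before the transcript start, 5′ to 3′ on the gene's strand, and capitals mark matches, on both strands, to the motifs of NF-kB, the interferon-stimulated response element, AP-1 (tgantca, where n is any base) and the glucocorticoid receptor. The windows lie at chr17:26508473-26508722 on the minus strand (Dusp1), chr2:127335909-127336158 on the plus strand (Dusp2), chr5:90903649-90903898 on the plus strand (Cxcl2), chr2:129371140-129371389 on the minus strand (Il1b) and chr12:55492648-55492897 on the minus strand (Nfkbia).
Cxcl2: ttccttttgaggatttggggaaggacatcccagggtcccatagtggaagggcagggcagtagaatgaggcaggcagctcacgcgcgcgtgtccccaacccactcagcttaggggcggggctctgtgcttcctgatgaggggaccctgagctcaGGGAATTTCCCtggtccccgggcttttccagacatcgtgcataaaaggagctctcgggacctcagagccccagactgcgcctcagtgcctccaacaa
Nfkbia: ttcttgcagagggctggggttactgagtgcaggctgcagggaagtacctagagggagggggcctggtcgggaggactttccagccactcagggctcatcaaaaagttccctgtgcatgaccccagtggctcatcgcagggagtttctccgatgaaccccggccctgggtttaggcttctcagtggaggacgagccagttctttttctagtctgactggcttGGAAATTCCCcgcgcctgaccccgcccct
Dusp1: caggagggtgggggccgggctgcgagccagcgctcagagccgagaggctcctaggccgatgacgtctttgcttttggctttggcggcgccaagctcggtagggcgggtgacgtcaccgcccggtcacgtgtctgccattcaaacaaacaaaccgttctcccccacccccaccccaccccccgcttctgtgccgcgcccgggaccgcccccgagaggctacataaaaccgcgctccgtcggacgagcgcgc
Dusp2: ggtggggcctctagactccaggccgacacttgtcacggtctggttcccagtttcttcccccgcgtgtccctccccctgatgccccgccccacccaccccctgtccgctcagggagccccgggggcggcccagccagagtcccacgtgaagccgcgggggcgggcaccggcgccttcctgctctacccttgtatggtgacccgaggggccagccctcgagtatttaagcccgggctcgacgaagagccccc
Il1b: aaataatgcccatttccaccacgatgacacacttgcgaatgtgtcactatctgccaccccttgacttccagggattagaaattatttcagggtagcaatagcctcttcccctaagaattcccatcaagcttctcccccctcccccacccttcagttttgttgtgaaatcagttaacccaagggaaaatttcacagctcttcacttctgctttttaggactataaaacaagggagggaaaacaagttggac
The window of Cxcl2 held the NF-kB motif on both strands in overlapping positions, from 97 to 87 bases before the start, and that of Nfkbia held it once, from 29 to 20 bases before it. The windows of Dusp1, Dusp2 and Il1b held none of the 4 motifs that were searched. Over whole windows of 300 bases, which run 50 bases past the start, the NF-kB motif was in 1.47% of all 32851 windows and in 3.81% of the 473 windows that matched 367 of the 477 genes with at least a 2-fold rise. The interferon element was in 3.44% and 8.03%, and the AP-1 motif in 7.81% and 9.73%. In the 9007 windows of the genes tested these shares were 1.52% for NF-kB, 3.08% for the interferon element and 4.92% for AP-1. In the 258 windows of genes that fell at least 2-fold each of the 3 motifs was in 2.71%, and the glucocorticoid receptor motif was in 21 of all windows, none of the risen and 1 of the fallen genes. In the 23 windows of the type I interferon list below the interferon element was in 12 (52.2%), and in the 7 windows of CXC chemokines the NF-kB motif was in 4 (57.1%). It was in 4 of the 19 windows of the NF-kB list (21.1%) and in 0 of the 7 windows of CC chemokines, and the 27 windows of the immediate early list held none of the 4 motifs. These are matches of letters in fixed windows and were not tested against each other.

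At the level of receptors and adaptors, the genes for sensing LPS moved in different directions. Of 17 tested genes of the Toll-like receptor list 11 rose and 1 fell (median 0.78, or 0.97 relative to all genes). Cd14 was at 147, 240.2, 258 and 228 CPM in the vehicle mice and at 986, 1716, 1117 and 1754 CPM in the LPS mice. LPS mice 2 and 4 were the highest and all 4 were above the vehicle mice, a rise of 2.65 (SE 0.21, adjusted p = 3.29e-07). Tlr2, the receptor of bacterial lipopeptides, rose from 31.4, 29.6, 34.4 and 41 CPM to 161, 214, 241 and 184 CPM (2.51), and Myd88 rose from between 75.8 and 89.1 to between 249 and 292 CPM (1.76). Tlr4 itself was the gene that fell, from 23.5, 33.9, 35.6 and 35.4 CPM to 17.6, 20.9, 14.8 and 10.8 CPM. Its groups did not overlap, with a log2 fold change of -0.98 (SE 0.22, adjusted p = 0.00557). Irak3, which encodes the kinase-dead inhibitor IRAK-M of this pathway, rose from between 3.03 and 4.91 to between 14.8 and 16.7 CPM (1.74), while Irak1 (-0.16), Irak2 (0.02) and Irak4 (-0.17) did not pass the test.

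The NF-kB list was the list with the largest share of called members among those with more than 10 tested. It had 15 of 16 tested genes higher and none lower (median 2.39). Tnip3, Nfkbiz and Bcl3 had the largest rises, ahead of Tnfaip3 and Nfkbia. Tnip3, which binds A20, rose from between 0.866 and 1.19 to between 39.3 and 63.2 CPM (4.67), Nfkbiz, an atypical IkB protein of the nucleus, from 2.62, 2.45, 5.88 and 6.52 CPM to 97.1, 86.1, 98.9 and 78.5 CPM (4.17) and Bcl3, another of these, from between 4.71 and 9.1 to between 106 and 134 CPM (4.01). Tnfaip3, the gene of A20, rose by 3.38 and Nfkbia by 3.16 on the log2 scale. The subunits rose by 2.76 for Nfkb2, 2.28 for Relb, 1.26 for Rel, 1.11 for Rela and 0.95 for Nfkb1. The deubiquitinase gene Cyld was the tested member that did not pass (-0.22, adjusted p = 0.361).

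Among the immediate early genes and MAP kinase phosphatases 19 of 24 tested rose and 1 fell (median 2.59). Besides Egr1, Dusp1, Dusp2 and Ier3 the risen genes included Egr2 (4.28), Ier2 (4.23), Fos (4.2), Dusp5 (4.16), Zfp36 (3.61), whose product destabilises cytokine transcripts, Junb (3.21) and Klf4 (2.36). Dusp6, the phosphatase specific for ERK, went the other way, from 469.8, 319, 499 and 388 CPM in the vehicle mice to 194, 177, 152 and 168 CPM in the LPS mice. Its log2 fold change of -1.26 (SE 0.15, adjusted p = 2.73e-05) left the groups without overlap. Of the 10 listed genes of the response to tissue dissociation, 8 are in this list too. The summed level of all 10 was 374 to 418 CPM in the vehicle and 3094 to 3753 CPM in the LPS mice. Both groups went through the same isolation, and the part of the isolation in these values was not tested.

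The secreted signals rose broadly. Of the cytokine list 12 of 14 tested genes were higher and none lower (median 2.42). Il1rn, the gene of the natural antagonist of interleukin 1, rose from 6.67, 5.8, 7.34 and 8.7 CPM to 122, 170.1, 196 and 160.1 CPM, a change of 4.32 (SE 0.18, adjusted p = 3.42e-10). Il1a rose by 3.32, Il12b by 3.82, Osm by 2.77, Il27 by 2.07 and Il6 by 1.64, the last from between 0.198 and 6.38 to between 8.52 and 13.8 CPM. Il18 (-0.17) and Tgfb1 (0.12) did not pass the test, and 7 listed cytokine genes, Ifnb1 and Il10 among them, were below the filter.

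Of the CC chemokines 8 of 9 tested rose (median 3.97), and of the CXC chemokines 6 of 7 (median 3.21). Ccl4, which attracts monocytes and T cells, was at 146, 124, 134 and 141 CPM in the vehicle and at 2296, 3049.9, 2891 and 2894 CPM in the LPS mice, a rise of 4.34 (SE 0.13, adjusted p = 1.37e-11). Ccl12, a mouse chemokine that attracts monocytes, rose from 70.6, 67.7, 62.1 and 78.1 CPM to 1529.8, 1862, 1199 and 1199 CPM, a change of 4.34 (SE 0.15, adjusted p = 6.48e-11). Ccl5, which attracts T cells and monocytes, rose from 30.02, 17.3, 31.1 and 35.2 CPM to 366, 561, 595 and 566 CPM (4.17), with LPS mouse 1 the lowest of its group. The risen CC genes lie in 2 stretches of chromosome 11 (GRCm38), with Ccl2 (chr11:82035571-82037453, 4.03), Ccl7 (3.7) and Ccl12 (chr11:82101845-82103400) in the first and Ccl5 (chr11:83525778-83530518), Ccl9 (1.41), Ccl3 (3.97) and Ccl4 (chr11:83662584-83664683) in the second. Ccl22 (3.09) is on chromosome 8. Cxcl1 (chr5:90891241-90893115), next to Cxcl2 (chr5:90903871-90905938) on chromosome 5, rose from 0.392, 1.88, 0.989 and 1.59 CPM to 49.6, 33.3, 34.5 and 38.9 CPM (4.22). The neighbours Cxcl9 (3.07), Cxcl10 (5.08) and Cxcl11 (3.21), all ligands of CXCR3 and known interferon targets, rose as well. Cxcl14 (-0.63, adjusted p = 0.224) and Ccl6 (0.18, adjusted p = 0.397) did not pass.

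Interferon-stimulated genes, known for their antiviral roles, rose together. Of 25 tested 22 rose and none fell (median 1.39). Oasl1, which restrains translation of Irf7, rose from 1.18, 3.32, 5.34 and 2.75 CPM to 52.7, 53.8, 82.1 and 79.8 CPM, a change of 4.11 (SE 0.29, adjusted p = 1.10e-07). Rsad2, the gene of viperin, rose from between 6.26 and 9.14 to between 76.7 and 138 CPM (3.67) and Ifit1, whose product binds foreign RNA, from 32.2, 16.6, 25.7 and 32.1 CPM to 242, 327, 399.9 and 314 CPM (3.56). Smaller rises were those of Irf7 (2.38), Ifit3 (1.51), Isg15 (1.16) and Ddx58 (0.70). Bst2 (0.11, adjusted p = 0.686) did not pass. Of the guanylate-binding proteins and immunity-related GTPases 6 of 10 rose, led by Gbp5 from 1.18, 1.68, 3.36 and 2.03 CPM to 42.2, 40.02, 66.1 and 35.3 CPM (3.94), Gbp2 (3.05) and Iigp1 (2.37), while Irgm1 (0.68, adjusted p = 0.0728) and Igtp (0.41, adjusted p = 0.065) did not pass. With median-of-ratios scaling and with quantile normalization both were called higher, which made 8 of 10. Genes of this family are close copies, and reads from them may be divided between members. Of the class I antigen presentation list 4 of 15 rose, H2-Q4 (1.48), H2-K1 from 789, 696, 735 and 920.0 CPM to 1774, 2192, 1829 and 1566 CPM (1.23), H2-D1 (0.92) and Tap1 (0.79), and the H2 genes also share reads. None of 8 class II genes was called (from -0.38 for H2-Eb1 to 0.49 for Cd74). This count was not stable, since without LPS mouse 2 H2-Aa and H2-Eb1 were called lower, Cd74 was called higher with median-of-ratios scaling, and with quantile normalization Cd74 was higher and H2-Eb1 lower.

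The largest rises among JAK-STAT genes were those of inhibitors. Of 26 tested genes 13 rose and 2 fell. After Socs3 came Cish, from 2.35, 1.88, 2.97 and 3.77 CPM to 92.3, 92.2, 86.9 and 73.7 CPM (4.56), Socs2, from 9.91, 5.6, 9.26 and 7.91 CPM to 108, 106, 134 and 135 CPM (3.75), and Socs1 (2.17). Stat3 rose by 1.79 and Jak3 by 1.45, while the receptor chains Il6st (-0.48) and Il10rb (-0.47) fell. Neither of these falls was a call after median-of-ratios scaling. The kinase gene Pim1, a STAT target, led the list of survival and growth-arrest genes, of which 10 of 14 rose (median 1.74). It was at 16.3, 23.7, 25.1 and 26.1 CPM in the vehicle and at 425, 515, 562 and 499.7 CPM in the LPS mice. Gadd45b (4.02), Gadd45g (3.65), the apoptosis inhibitor Birc3 (2.77) and Mcl1 (1.56) rose with it, and Bcl2 (0.18) and Bcl2l11 (-0.23) did not pass.

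Enzymes of mediator synthesis had 7 of 14 tested genes higher and 1 lower. Ptgs2, the inducible cyclooxygenase of prostaglandin synthesis, rose from 0.981, 1.44, 2.57 and 2.03 CPM to 84.8, 132, 74.3 and 67.3 CPM, a change of 5.02 (SE 0.26, adjusted p = 2.56e-09). Ptgs1, the constitutive cyclooxygenase, was the lower gene (-0.45, adjusted p = 0.025), and it was no longer called after median-of-ratios scaling. Ptger4, a receptor of prostaglandin E2, rose from between 3.9 and 6.93 to between 104 and 149.8 CPM (4.4). Nos2, the inducible nitric oxide synthase, was at 0, 0.144, 0.989 and 1.16 CPM in the vehicle mice, at the level of a few reads, and at 10.7, 13.5, 9.26 and 12.3 CPM in the LPS mice (3.05). The superoxide-producing subunit Cybb (1.89) and Sod2 (1.7) rose too. Of 7 inflammasome genes 2 rose, Casp4, the mouse sensor of cytosolic LPS (caspase-11), from 10.6, 14.9, 12.9 and 15.2 CPM to 121, 95.5, 101 and 143 CPM (3.01), and Nlrp3 (1.01), while Casp1 (-0.13) and Pycard (-0.37) did not pass.

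Acute phase, metal and iron genes had 9 of 14 higher and 1 lower (median 1.33). The metalloreductase gene Steap4 rose from 0.392, 1.15, 0.396 and 0.725 CPM to 19.3, 20.2, 15.7 and 22.3 CPM (3.63), the metallothionein Mt2 from 71, 78.4, 59.7 and 42.3 CPM to 633, 597, 569 and 647 CPM (3.3), and Saa3 (2.76) and Lcn2 (2.52), an iron-sequestering lipocalin, rose as well. The gene that fell was Slc40a1, the iron exporter ferroportin, from 219.6, 249, 212 and 219.6 CPM to 146, 130.3, 106 and 100.0 CPM, a change of -0.91 (SE 0.14, adjusted p = 3.51e-04). Of the glucocorticoid-induced genes 8 of 11 rose and 1 fell. Cdkn1a (3.32), Per1 (2.78), Fkbp5 (1.37) and Tsc22d3 (0.93), the gene of GILZ, rose. Sgk1, a textbook target of the receptor, fell from 265, 252, 294 and 391 CPM to 111, 74.6, 63.9 and 67 CPM, a change of -1.93 (SE 0.19, adjusted p = 2.56e-06) with no overlap of the groups.

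Of the surface receptors, the Fcγ receptor list had 4 of 5 genes higher, led by Fcgr4 (1.37) and Fcgr3 (0.96). The complement list had 3 of 12 higher, of which C5ar1, the receptor of C5a, rose from 112, 84.1, 91 and 59.4 CPM to 210.0, 253, 361 and 177 CPM (1.5), while the rises of C3ar1 (0.45) and C1qa (0.36) lost their call under most alternative settings. The scavenger receptor list was divided, with 4 of 15 higher and 3 lower. Clec4e, the lectin Mincle, rose from 0.785, 2.74, 3.76 and 3.91 CPM to 31, 47.5, 43.5 and 54.8 CPM (3.65), and Trem1 (2.63) and Msr1 (2.4) rose, while Stab1 (-1.0) and Scarb1 (-0.71) fell. Among adhesion and chemotactic receptors 10 of 18 rose and 1 fell. The formyl peptide receptor Fpr2 rose from 30.6, 20.5, 28.3 and 26.8 CPM to 216, 313, 357 and 311 CPM (3.44), and Ccr7 (3.49), Ccrl2 (3.43) and Icam1 (3.25) rose as well. Ccr2, the receptor of Ccl2 and a marker of monocytes, fell from 10.01, 5.67, 11.2 and 12.2 CPM to 1.96, 1.64, 2.86 and 1.06 CPM (-1.9). Adam8 (1.35), Mmp14 (1.11) and Mmp8 (1.44) were the higher members of 7 tested proteinases and inhibitors, and Mmp8 is also on the neutrophil list.

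**Figure D3:**
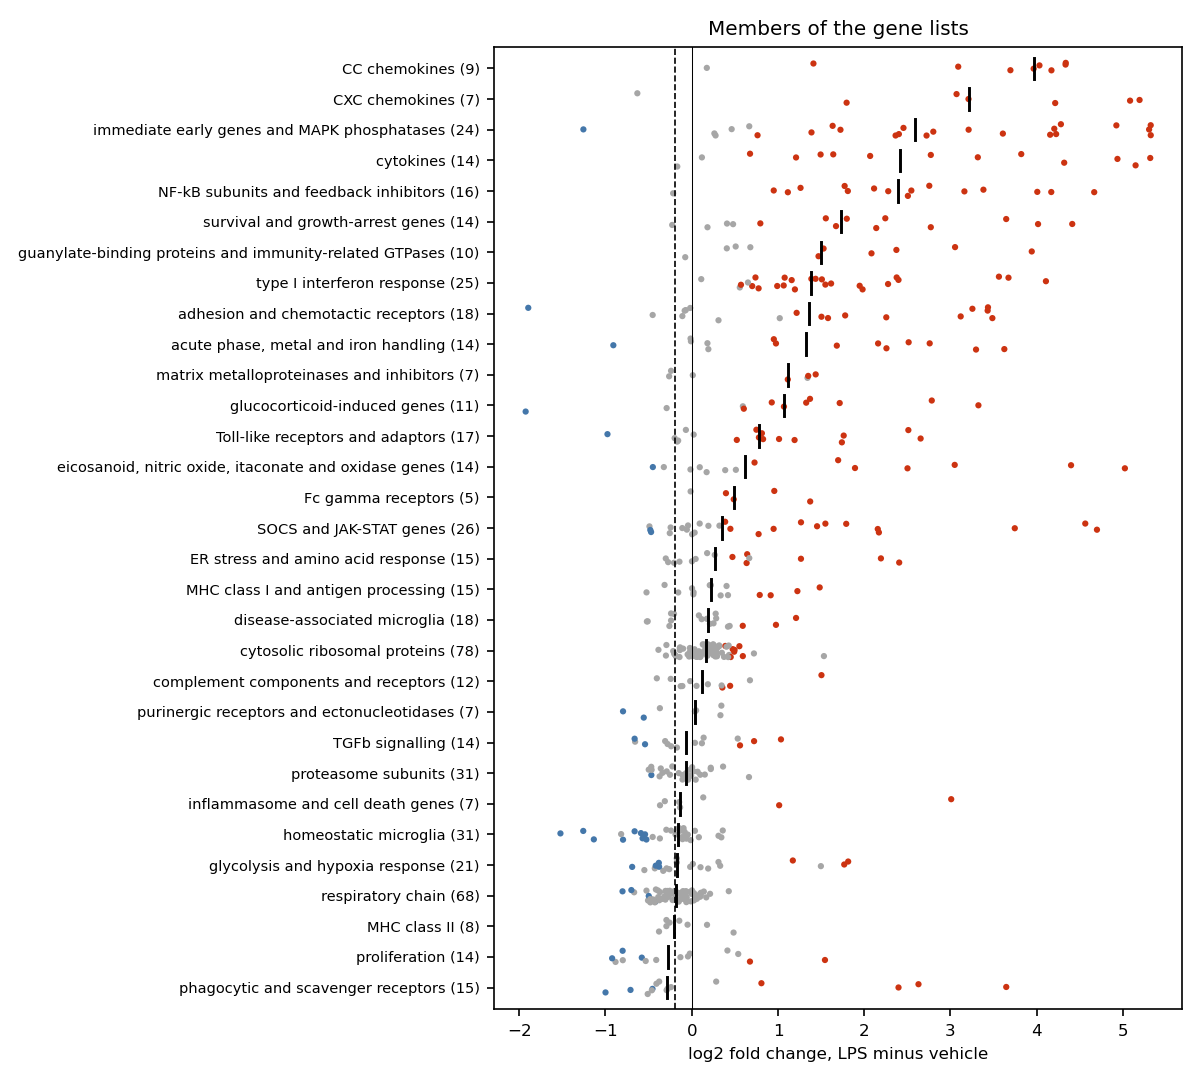
Log2 fold change between 4 LPS and 4 vehicle mice (x axis) of each tested member of the 31 gene lists (y axis, number tested in brackets), red for called rises, blue for called falls and grey for the rest, with the list median as a black bar. The medians run from 3.97 for CC chemokines to -0.29 for phagocytic and scavenger receptors, and the dashed line marks the median of all genes tested.

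The counts of general metabolic and housekeeping lists stand beside 8.79% of all tested genes higher and 13.6% lower. The ribosomal rises were near that share of all genes, and the ER stress list had rises and no falls. Of 78 ribosomal protein genes 7 rose (median 0.17), and this count was 2 without LPS mouse 2 and 17 with median-of-ratios scaling. Of 68 nuclear respiratory chain genes 4 fell (median -0.18), which was 0 after median-of-ratios scaling, and of 31 proteasome genes 1 fell, Psmb1 (-0.47), which was lost after that scaling too. Of the 12 tested mitochondrially encoded genes none was called. In glycolysis, the regulators Pfkfb3, from 207, 161, 233 and 218 CPM to 734, 645, 796 and 699.7 CPM (1.81), and the glucose transporter Slc2a1 (1.77), with Ldha (1.17), rose, while Eno1 (-0.42), Pgam1 (-0.38), Gapdh (-0.38) and Bnip3 (-0.69) were lower, and of these 4 falls 1 remained a call after median-of-ratios scaling. The ER stress and amino acid list had 6 of 15 higher, with the cystine transporter Slc7a11 (2.41), the glutathione-degrading enzyme Chac1 (2.19) and Herpud1 (1.27) in front.

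Genes that mark resting microglia fell in part. Of 31 tested homeostatic genes none rose and 9 fell, while the list's median of -0.16 was 0.03 from that of all genes. With median-of-ratios scaling 1 rose and 7 fell. Sall1, a transcription factor that maintains microglial identity, was at 262, 259, 232 and 335 CPM in the vehicle mice and at 99.7, 95.3, 84.7 and 93.9 CPM in the LPS mice. The groups were far apart, with a log2 fold change of -1.52 (SE 0.14, adjusted p = 1.25e-06). Gpr34, a lysophosphatidylserine receptor, fell from 683, 623, 674 and 879.6 CPM to 377, 369, 271 and 203 CPM (-1.26). P2ry12, the receptor of ADP by which resting processes find damage, fell from 629.5, 721, 793 and 1113 CPM to 530.4, 542, 387 and 394 CPM, a change of -0.80 (SE 0.18, adjusted p = 0.00539), with vehicle mouse 4 the highest. Tmem119 (-0.09, adjusted p = 0.653) and Csf1r (-0.16) did not pass, and Cx3cr1 (-0.45, adjusted p = 0.0532) missed the threshold narrowly. Of 7 purinergic genes P2ry12 and P2rx7 (-0.56) fell. In the TGFβ list Skil (1.04), Tgif1 (0.72) and Nrros (0.56) rose, and the target gene Pmepa1 (-0.66) and the receptor Tgfbr1 (-0.54) fell. The falls of P2rx7 and Tgfbr1 were not calls with median-of-ratios scaling. Of 18 genes of disease-associated microglia 3 rose, Csf1 (1.21), Fth1 (0.98) and Cd63 (0.59), and Apoe (0.28), Trem2 (-0.24), Lpl (-0.52) and Spp1 (0.25) did not pass. Proliferation genes were divided, with Ccnd2 (1.55) and Ccnd3 (0.68) higher and Top2a (-0.58), Mcm7 (-0.80) and Ccnb1 (-0.92) lower. Of these 3 falls, those of Top2a and Ccnb1 were not calls with median-of-ratios scaling or quantile normalization, while without LPS mouse 2 there were 4 lower genes.

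Of the 15 largest falls 2 were members of the lists, Sgk1 and Ccr2. The lists hold a small part of the 9012 genes tested, so most genes lie outside them. Cbfa2t3, a transcriptional corepressor, was at 28.3, 32.9, 41.5 and 40.01 CPM in the vehicle mice and at 7.58, 6.73, 7.6 and 2.96 CPM in the LPS mice. LPS mouse 4 was the lowest, and the log2 fold change was -2.4 (SE 0.26, adjusted p = 1.01e-05). Rgs2, which accelerates the shut-off of G protein signalling, was at 619, 573, 654 and 601 CPM in the vehicle mice and at 153, 129, 118 and 96.5 CPM in the LPS mice, a log2 fold change of -2.31 (SE 0.14, adjusted p = 2.08e-08). The groups were far apart, and LPS mouse 4 was the lowest of its group. The transcription factor Hhex fell from 65.3, 71.4, 68.7 and 84.2 CPM to 15.2, 16.5, 17.5 and 12.3 CPM, a change of -2.17 (SE 0.16, adjusted p = 1.98e-07), and the inward rectifier potassium channel gene Kcnj2 from 164, 171, 147 and 199 CPM to 46.4, 42.2, 39.1 and 34.1 CPM, a change of -2.05 (SE 0.15, adjusted p = 1.09e-07). The Polycomb genes Cbx2 (from between 6.06 and 14.2 to between 0.522 and 2.96 CPM, -2.12) and Cbx8 (from between 47.3 and 93.2 to between 11.8 and 18.3 CPM, -1.99) fell, the former on few reads. Further falls were those of Zkscan4 (-2.03), Tnfsf8, the CD30 ligand (-1.98), Enc1 (-1.96), Glt1d1 (-1.93), the deubiquitinase gene Otud1 (-1.87) and the arrestin-domain gene Arrdc3 (-1.86). All of these falls kept their call under each of the 16 alternative settings, median-of-ratios scaling included.

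The study derived its gene modules from microglial cultures, without these 8 mice, and named them by a code of a first and a second clustering. Of the 1161 module genes tested 262 rose and 195 fell, and with median-of-ratios scaling 304 rose and 107 fell. Among all 9012 genes tested 8.79% rose and 13.6% fell, and with that scaling 1022 genes rose and 585 fell. The 31 modules with a gene list used here are not all of those the study worked with. In 5 of these 31 modules the median member was at least 2-fold higher. CY_brown had 18 of 25 genes higher (median 2.5), CY_red 23 of 26 (median 2.09), CY_turquoise 23 of 34 with 3 lower (median 1.55), PU_turquoise 20 of 28 (median 1.53) and PI_blue 10 of 14 (median 1.35). BR_turquoise, which the study ties to type I interferon, had 51 of 119 higher and a median of 0.41. The 12 modules whose name begins with TQ had 148 of 516 tested genes lower and 33 higher, or 82 lower and 45 higher with median-of-ratios scaling, and their medians lay between -0.47 and -0.14, around the -0.19 of all genes. Among them TQ_yellow had 25 of 53 genes lower (median -0.42), or 15 with that scaling. The hub genes by which the study reads modules moved unequally. Clec4e (of CY_turquoise) rose by 3.65, Irak3 (of YE_turquoise) by 1.74 and Ifit3 (of BR_turquoise) by 1.51, the last from 80.5, 105, 69.6 and 73 CPM to 191, 228, 273 and 245 CPM. Naaa (of PI_turquoise) was at 24.4, 31.3, 36.6 and 40.2 CPM in the vehicle and at 39.6, 48, 38.5 and 34.3 CPM in the LPS mice, with overlapping groups and a log2 fold change of 0.28 (SE 0.18, adjusted p = 0.289).

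The summed markers of neutrophils, monocytes, NK cells and T cells were higher in each LPS mouse than in any vehicle mouse, those of B cells overlapped, and their values stand beside all of the results on cytokines, chemokines, adhesion and scavenger receptors. The 12 neutrophil markers summed to 155, 118, 196 and 110.5 CPM in vehicle mice 1 to 4 and to 218, 343, 372 and 412 CPM in LPS mice 1 to 4. Of 8 tested 5 rose and none fell, with S100a9 (1.29) and Retnlg (1.95) among the risen. The listed genes Ly6g, Elane and Mpo stayed below the filter. Ly6g was at 0.396 to 2.6 CPM in the vehicle and at 1.54 to 3.71 CPM in the LPS mice. The 10 monocyte markers summed to 41.2 to 85.5 CPM in the vehicle and to 105 to 189.6 CPM in the LPS mice, with 5 of 8 tested higher, Plac8 (2.34) and Ly6c2 (1.1) among them, and Ccr2 lower. The NK cell list summed to 5.05 to 11.7 CPM in the vehicle and to 41.5 to 84.8 CPM in the LPS mice, most of it from Gzmb (2.35, 3.61, 3.56 and 2.03 CPM without and 35.7, 68.6, 31.7 and 61.7 CPM with LPS, 3.65), while Nkg7 was at 0.866 to 4.35 and 1.54 to 6.61 CPM. Of the T cell list Lck rose (1.74), while Cd3d was at 3.52 to 4.96 CPM in the vehicle and at 2.82 to 5.81 CPM in the LPS mice. In the 11 young mice of the aging experiment the neutrophil sum was 232 to 1464 CPM. Those mice differ in sex and libraries, so levels are not compared between the experiments. The 5 B cell markers summed to 7.15 to 13.9 CPM in the vehicle and to 5.22 to 10.3 CPM in the LPS mice. The part of leukocytes in the rises of the LPS mice was not tested. Astrocyte, oligodendrocyte and neuron markers had no called member, and their sums overlapped between the groups. The sums of perivascular macrophage and dendritic cell markers overlapped as well. The 9 endothelial markers summed to 61.7 to 80.7 CPM in the vehicle and to 57.9 to 59.7 CPM in the LPS mice, each LPS mouse below every vehicle mouse. The 1 endothelial marker tested was not called.

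**Figure D4:**
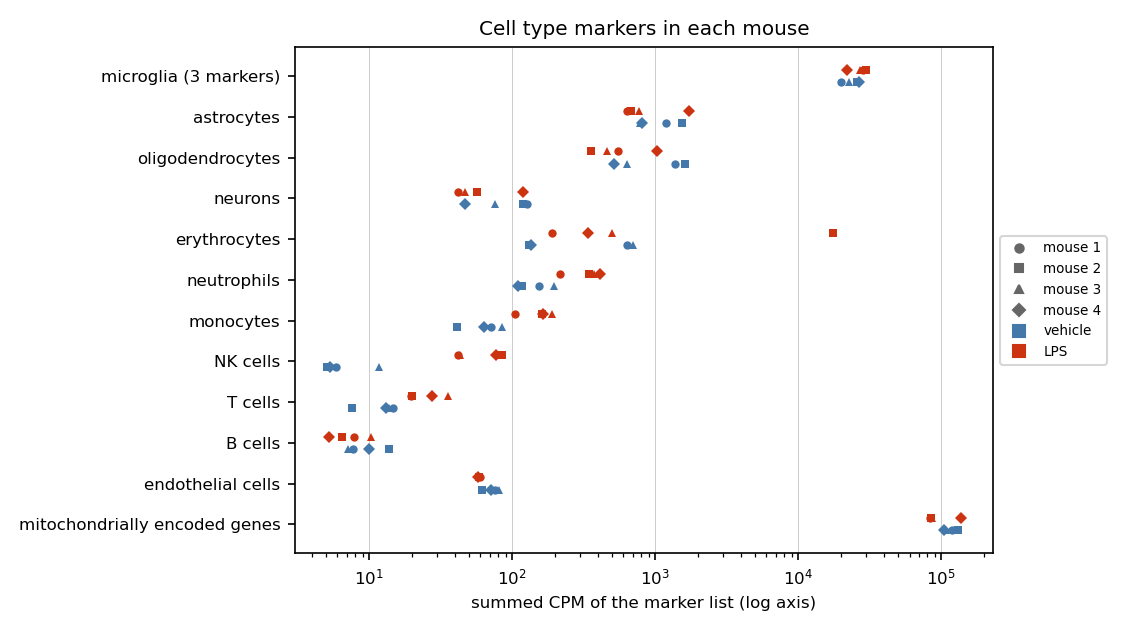
Summed CPM of marker lists (x axis, log scale) in each of the 4 vehicle mice (blue) and the 4 LPS mice (red), with a symbol for each mouse of a group. Neutrophil, monocyte, NK cell and T cell sums of all LPS mice lie above those of all vehicle mice, and endothelial sums lie below them. LPS mouse 2 stands apart in erythrocyte genes at 17382 CPM, and LPS mouse 4 in mitochondrially encoded genes at 138299 CPM.

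The effect of LPS was then set against that of age, a chronic state. Microglia of 11 young mice (2 months) and 13 aged mice (22 months) of the same table were used. The 2 experiments share no mice, but they differ in sex (the aging mice were male) and libraries, which cannot be told apart from the experiment, and so each effect was taken within its own experiment. Of 10883 genes tested, the difference of the effects was called for 1591 (14.6%), higher for LPS in 576 (5.29%) and lower in 1015 (9.33%). The median difference of all genes was -0.21. Without the library batch of the aging mice in the model 753 were called, 373 higher and 380 lower, and with median-of-ratios scaling the split was 850 higher and 444 lower.

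The largest differences in favour of LPS were those of immediate early and feedback genes and of Tnfsf9. Dusp1 was at 2.77 to 6.75 CPM (median 4.95) in the young and at 0.584 to 15.5 CPM (median 2.41) in the aged mice, an age effect of -0.45, so its LPS effect was higher by 5.77 (SE 0.46, adjusted p = 5.48e-12). Egr1 had an age effect of 0.03 and a difference of 5.29 (SE 0.44, adjusted p = 1.46e-11), Tnfsf9 of 0.23 and 5.09 (SE 0.42, adjusted p = 1.44e-11), Socs3 of -0.15 and 4.85 (SE 0.66, adjusted p = 8.58e-07), and Ier3 of 0.09 and 4.83 (SE 0.28, adjusted p = 6.23e-16). None of these 5 genes was called for age. In the other direction Tnfsf8 fell with LPS and was higher in aged mice, at 4.01 to 9.07 CPM (median 5.97) in the young and at 8.13 to 32.3 CPM (median 20.6) in the aged, a difference of -3.51 (SE 0.37, adjusted p = 3.78e-09). Col6a3 showed the same opposition, with an LPS effect of -0.83, an age effect of 1.51 and a difference of -2.35 (SE 0.23, adjusted p = 7.01e-10). Cbx2 (-2.64 (SE 0.51, adjusted p = 2.72e-04)), Ccr2 (-2.38 (SE 0.39, adjusted p = 2.46e-05)) and Cbfa2t3 (-2.29 (SE 0.22, adjusted p = 6.47e-10)) differed through the fall with LPS, and none of the 3 was called for age.

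By class, the immediate early list had a median LPS effect of 2.59 and a median age effect of -0.01, and the NF-kB list of 2.39 and 0.18, with the difference called in favour of LPS for 18 of 24 and 15 of 16 genes. The interferon list had medians of 1.29 for LPS and 1.08 for age, and of 28 genes 8 differed in favour of LPS and 1 in favour of age. Ifit3 is an example, with LPS and age effects of 1.51 and 1.5 and a difference of 0.01 (SE 0.27, adjusted p = 0.984), while for Ifit1 the difference was 2.17 (SE 0.30, adjusted p = 9.15e-07). Tnf was higher in aged mice as well (1.43, adjusted p = 2.24e-07), but its LPS effect was larger by 3.51 (SE 0.33, adjusted p = 2.37e-10). MHC class II, with a median LPS effect of -0.20 and age effect of 0.57, had 4 of 10 genes with a lower LPS effect, and the glycolysis list had 10 of 23. Over all genes the lower calls went from 1015 to 444 with median-of-ratios scaling. The counts by class in this comparison were not repeated with that scaling. Of the homeostatic genes, Sall1 (-1.38 (SE 0.16, adjusted p = 4.14e-08)) fell more with LPS than with age, whereas for P2ry12, with effects of -0.80 and -0.49, the difference of -0.30 (SE 0.22, adjusted p = 0.392) did not pass.

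**Figure D5:**
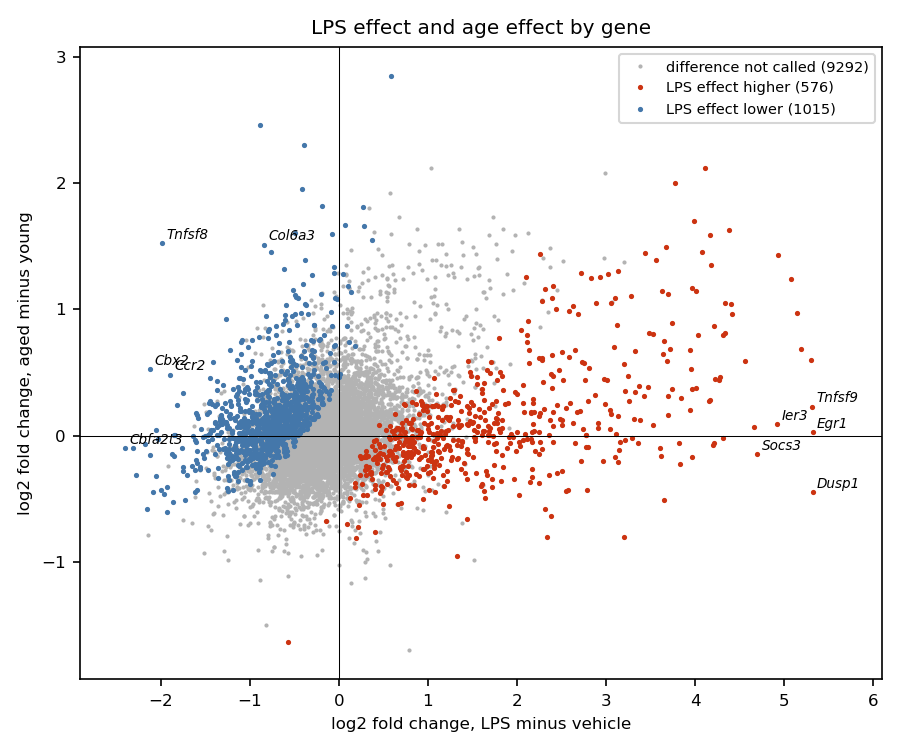
Log2 fold change of LPS against vehicle (x axis, 4 against 4 mice) and of aged against young mice (y axis, 13 against 11 mice) for the 10883 genes tested, in red where the LPS effect was called higher (576) and in blue where it was called lower (1015). The labelled genes have the largest differences in each direction under the naming rule, with Dusp1, Egr1, Tnfsf9, Socs3 and Ier3 near an age effect of 0.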

How the data were processed

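The in vivo table holds microglial RNA sequencing of 32 mice. The authors quantified 3′-end reads with salmon 0.7.1, summed the reads of each gene's transcripts and deposited CPM, which the paper calls TPM although no division by transcript length is described. The labels name the mouse build mm8 and the methods an Ensembl build of GRCm38, and gene positions here are those of GRCm38 (GENCODE). In each mouse 81.1% to 83.5% of low values came within 0.1 of whole reads, so reads were not recovered and no count test was run. The depth of 5.05 to 7.78 M reads per mouse limits genes of a few CPM, and no interval was attached to single values. The table's header calls the treatment 2 weeks long, and the labels, which give 4 h, were followed.

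Values were transformed to log2(CPM + 1), so fold changes understate those of low genes. Genes above 5 CPM in at least 4 of the 8 mice entered limma 3.58.1 (R 4.3.3, moderated test with trend, Benjamini-Hochberg adjustment over all 9012 genes). For the comparison with age the filter ran over 32 mice, a gene had to be above 0 in each experiment, and library batch was a term. The replicates are separate mice. The script was tested on simulated data before use. Alternatives were 2 pseudocounts, 2 filters, 2 scalings, a fit without the trend, a fit of all mice and leaving out each mouse.

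Named genes are the 15 largest rises and falls with a mean of at least 5 CPM in the higher group and no overlap of groups, the 3 called members of each list with the largest change, the 2 most abundant markers of each cell type, 4 hub genes, and the 5 largest differences from age in each direction. Genes named beyond this rule, such as Tlr4, Dusp6 and Slc40a1, were chosen after their values were seen. The samples, the 31 gene lists and the 14 marker lists were chosen with earlier results of these data known. Module lists are those of the study. A few results that the rule would name are not reported here. Names damaged by a spreadsheet were counted and not named. Figures used Python 3.11.15 with matplotlib 3.10.9.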

Additional observations from a re-analysis of the deposited data

Results flagged for a closer look

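In 16 of 296 groups of 4 mice (the named genes, the marker sums and the mitochondrial sum, each in both treatments, on the log2 scale) 1 mouse lay apart from the other 3 by Dixon's criterion. Chance alone flags about 1 in 20 groups, and here it was 5.41%. The mitochondrially encoded genes of LPS mouse 4 summed to 138299 CPM against 83669 to 85751 CPM in the other LPS mice. The same mouse was the lowest for Cbfa2t3 (2.96 CPM against 6.73 to 7.60) and Tgif1 (315 against 443 to 463) and the highest for Rps6 (231 against 216 to 217) and Mag (51.0 against 50.0 to 50.1). LPS mouse 1 was the lowest for Ccl5 (366 CPM against 561 to 595) and Mmp8 (15.8 against 30.7 to 33.7), and LPS mouse 2 for Enc1 (14.6 against 25.01 to 26.5). Among the vehicle mice, mouse 1 was the highest for C1qa (1898 CPM against 1812 to 1815) and the lowest for Fcgr3 (580.1 against 717 to 739) and Fcgr4 (12.2 against 16.02 to 16.2). Vehicle mouse 2 was the highest for Fth1 (769 CPM against 611 to 613) and the lowest for Cxcl10 (17.6 against 21.8 to 22.8), Cd63 (212 against 263 to 272) and C3ar1 (99.0 against 145 to 149). Vehicle mouse 3 was the highest for Dusp1 (9.50 CPM against 4.51 to 4.93). For the rises and falls of the 15 leading genes in each direction these mice did not change a call when left out. The causes of these values were not tested.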

How the results depend on the processing

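Scaling moved the split of calls. With median-of-ratios scaling 585 genes were lower, and with at least a 2-fold change 151 were lower. With a pseudocount of 5 the latter count was 120, which follows from the shrinkage of low genes toward 0. Over the 8 fits that left out 1 mouse, called genes numbered 1525 to 1805 (684 to 747 higher, 818 to 1106 lower), and those changed at least 2-fold 721 to 800 (452 to 489 higher, 244 to 329 lower). For the comparison with age, dropping the library batch from the model gave 753 calls (373 higher, 380 lower), and lower calls numbered 444 with median-of-ratios scaling and 593 with quantile normalization. Leaving out 1 mouse there gave 1316 to 1499 calls (506 to 564 higher, 783 to 989 lower). The cause of the batch term's effect was not tested. Of 113 named genes with a call, 101 kept it in the same direction under all 16 alternatives, and none of the named genes reversed. The 12 that lost it under some were C1qa, C3ar1, Ccnb1, Fcer1g, Ly6c2, Ndufa8, Ndufb4, Ndufs4, P2rx7, Psmb1, Rps15a and S100a9. No paired analysis was possible because the labels give the mice no replicate numbers that tie an LPS mouse to a vehicle mouse.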

Other observations

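Most of the genes that changed at least 2-fold belonged to none of the lists, which hold a small part of all genes tested. The share of all tested genes outside the lists was not counted, so the numbers below describe no trait of the changed genes. Of the 477 that rose, 313 were in no list, and 88 of these were in a module of the study. Of the 274 that fell, 267 were in no list and 42 of these were in a module. The genes below were chosen after their values were seen, as the largest rises outside the lists. Slfn4, a myeloid gene of the Schlafen family, was at 8.63, 4.62, 5.54 and 6.23 CPM in vehicle mice 1 to 4 and at 112, 159.9, 139 and 189 CPM in LPS mice 1 to 4, a rise of 4.38 on the log2 scale by limma (SE 0.21, adjusted p = 1.21e-09). Marcksl1, a regulator of the actin cytoskeleton, was at 31.6, 31.2, 41.6 and 41.7 CPM in the vehicle mice and at 633, 613, 608 and 473 CPM in the LPS mice, a rise of 3.96 (SE 0.15, adjusted p = 1.02e-10). Map3k8, the kinase Tpl2 that links IkB kinase to ERK, was at 11.6, 12.6, 9.3 and 16.96 CPM and at 276, 199, 169.5 and 188 CPM, a rise of 3.95 (SE 0.20, adjusted p = 2.02e-09). In each of these genes the groups did not overlap. Cd40, the costimulatory receptor of antigen-presenting cells, rose from 1.44 to 2.31 CPM in the vehicle mice to between 44.8 and 63.9 CPM in the LPS mice (4.21). Rnd1, a small GTPase (4.27), Maff, a small MAF transcription factor (4.18), Stx11, a syntaxin of immune cells (4.07), and Gem, another small GTPase (3.96), rose as well. Tmem88 (4.32), Mrgpra2a (3.99), Gpr132 (3.96) and Ifitm7 (3.84) completed the 12 largest.

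Markers of brain cells other than microglia varied between mice of the same treatment. The oligodendrocyte markers summed to 1371, 1615, 637 and 514 CPM in vehicle mice 1 to 4 and to 549, 355, 458 and 1029.6 CPM in LPS mice 1 to 4. The astrocyte markers summed to 1182, 1548, 786 and 807 CPM and to 634, 681, 765 and 1731 CPM. Vehicle mice 1 and 2 and LPS mouse 4 were the highest in both sums and in the sum of the mitochondrially encoded genes. The part of these cells in the results was not tested, and the calls without LPS mouse 4 stand above.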
